A study of Homo sapiens with 132 samples.

Results

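The comparison set untreated MKN1 against untreated NCI-N87, a pair of human gastric carcinoma cell lines that lie far apart in ERBB2 level. Its members were the 12 libraries, 9.09% of the series, that the labels give as one of these lines and as unstimulated: 6 of MKN1 and 6 of NCI-N87, harvested after 4 h or 24 h, with 3 replicates at each time. Both lines derive from metastases, were grown in the same serum-containing medium and received fresh medium shortly before the treatments began, and MKN1 was seeded at a slightly lower density. The study treated both lines with the HER2 antibody trastuzumab, the ERBB kinase inhibitor afatinib or the pair together, and MKN1 also with EGF, the EGFR antibody cetuximab or the pair together. It used NCI-N87 as a line that responds to trastuzumab and MKN1 as one that does not, and MKN1 as a line that responds to cetuximab. No agent was added to the 12 libraries compared here, so they are the untreated controls of the same harvest times. No library was taken at the start of the treatments. Each line stands for itself: a difference between them may belong to either line and cannot be told apart from tissue site, donor or culture history.

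ERBB2 (HER2) is a receptor tyrosine kinase with no known ligand of its own that signals by pairing with EGFR, ERBB3 or ERBB4. In part of gastric cancers the gene is amplified together with its neighbours on the long arm of chromosome 17, and the receptor is then the target of trastuzumab. Carcinoma lines also differ in how far they keep the epithelial programme, built on E-cadherin, tight junction proteins and the splicing factors ESRP1 and ESRP2, against a mesenchymal one with vimentin, collagens and the repressor ZEB1.

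Poly(A) RNA was sequenced with a strand-specific kit, and each deposited file lists counts per Ensembl gene. The 12 libraries held 39005311 to 55291592 counts (median 48339089), so that 3 counts equal 0.0543 to 0.0769 CPM (counts scaled to a common library size). Levels are given as CPM after TMM scaling of library sizes, and a level per length is given as CPM per kilobase of exons (RPKM). In bulk libraries, fewer cells of a type and less RNA per cell cannot be told apart. A listed 0 was no measure of absence: of the protein-coding genes whose exonic bases lie wholly within another gene, 1503 of 1858 (80.9%) had 0 counts in every library of the series checked here, against 517 of 9771 (5.29%) of those without overlap. RPS4X, RPL15 and CDKN2A, all wholly overlapped, were among those listed at 0. Genes high in 1 line also had low counts in the other. For genes higher in MKN1 by a log2 fold change over 6 and above 32 CPM there, the median share of the MKN1 level was 0.996% and 0.72% in the NCI-N87 replicate 1 libraries and 0.199 to 0.339% in the other 4, a share that the choice by fold itself keeps low. For 78 genes chosen likewise in NCI-N87, the MKN1 libraries held 0.369 to 0.849%. The folds of the largest differences rest on such traces, and their part in those folds was not tested.

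The lines differed at a large part of their genes. Of 19098 genes tested, with harvest time as covariate, 8852 passed an adjusted p of 0.05 with an absolute log2FC of at least 1: 4866 (25.5%) were higher in MKN1 and 3986 (20.9%) higher in NCI-N87. Within the first and the second series of sample numbers in the labels, 8888 and 8781 genes were called. The first series holds only replicate 1 of NCI-N87 and the second only replicate 3 of MKN1. These counts therefore rest on a single replicate number in 1 of the lines. The libraries of the lines did not overlap at 11857 genes (62.1%). The gene list counts below are read against these shares. Those lists were chosen with earlier results of these data known. Log2 fold changes (log2FC) are MKN1 minus NCI-N87, positive where MKN1 was higher, and their median over all genes tested was 0.03. The largest differences leaned to MKN1, with 1665 called genes above a log2FC of 4 and 577 below -4. Of protein-coding genes, 264 had 3 or fewer counts in every NCI-N87 library and 85 in every MKN1 library. Libraries of 1 line with the same replicate number deviated together, so the 6 libraries of a line cannot be taken as 6 independent cultures, and p-values measure the spread between these libraries.

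Of the 4 ERBB receptors, ERBB2 and ERBB3 were called higher in NCI-N87, ERBB4 was called higher in MKN1 at a low level, and EGFR was not called. ERBB2 (chromosome 17, 39687914 to 39730426, plus strand, GRCh38) ranged from 114.3 to 176 CPM (median 151.4) in MKN1 and from 10772 to 14694 CPM (median 12235) in NCI-N87. No libraries overlapped, and the log2FC was -6.39 ± 0.11 (SE, derived from the F statistic of the fit, n = 6 libraries a line, edgeR adjusted p = 1.4e-14). Per length this was a level of 14.5 against 1217 RPKM. Untreated MKN7 and Hs746T, the other lines of the series, lay between and below at a mean of 3985 and 86 CPM, computed on library totals. ERBB3, the kinase-poor partner that couples ERBB2 to PI3K signalling, ranged from 3.27 to 9.18 CPM (median 6.16) in MKN1 and from 63.7 to 96 CPM (median 71.7) in NCI-N87 (log2FC -3.66 ± 0.15). EGFR, the target of cetuximab, ranged from 231 to 495 CPM (median 346) in MKN1 and from 143.3 to 229.7 CPM (median 185.5) in NCI-N87. Its libraries just failed to overlap, its log2FC was 0.87 ± 0.16 (edgeR adjusted p = 0.00015), and it stayed below the fold limit. In the 4 h libraries alone EGFR passed that limit at a log2FC of 1.34. In the 24 h libraries alone its log2FC was 0.44 (line by time interaction -0.88, edgeR adjusted p = 0.023). ERBB4, a neuregulin receptor, ranged from 0.465 to 1.78 CPM (median 0.799) in MKN1 and from 0.0398 to 1.01 CPM (median 0.255) in NCI-N87, with overlapping libraries. Its log2FC was 1.34 ± 0.52 (edgeR adjusted p = 0.027), and without MKN1 replicate 2 it fell to 0.92 and was no longer called.

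**Figure D1:**
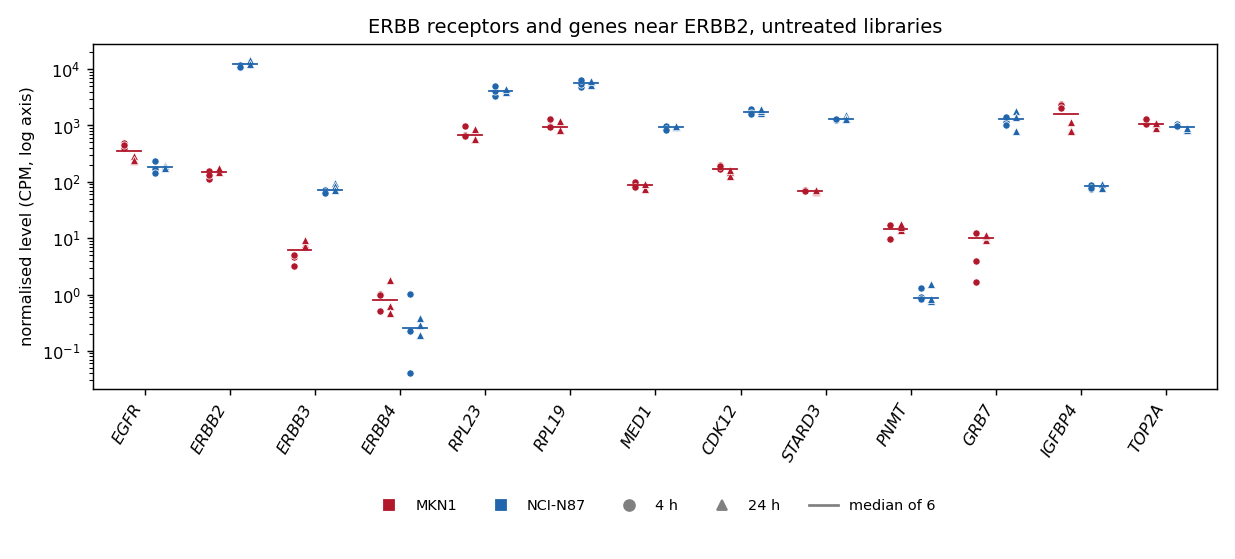
Normalised level (CPM, log axis) of the ERBB receptors and of genes near ERBB2 in each of the 12 untreated libraries, with circles for 4 h, triangles for 24 h and a bar at the median of the 6 libraries of a line. ERBB2 lies at 114.3 to 176 CPM in MKN1 and at 10772 to 14694 CPM in NCI-N87, while TOP2A overlaps between the lines.

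Of 11 ligands of these receptors tested, 4 were higher in NCI-N87 and 2 in MKN1. TGFA, a ligand of EGFR, ranged from 16.1 to 45.1 CPM in MKN1 and from 110.8 to 132.5 CPM in NCI-N87 (log2FC -2.18). NRG4, a ligand of ERBB4, was lower in MKN1 by a log2FC of -4.53, with 38.1% of its exonic bases within another gene. The other ligands higher in NCI-N87 were EPGN, at a log2FC of -1.61, and EGF. HBEGF, which binds EGFR and ERBB4, ranged from 14.8 to 53.3 CPM in MKN1 and from 9.05 to 13.2 CPM in NCI-N87 (log2FC 1.61), and NRG2 had a log2FC of 2.45. NRG1, the main ligand of ERBB3, was low in both lines, at medians of 1.26 and 1.43 CPM, and was not called.

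The neighbours of ERBB2 on 17q12-q21 were mostly higher in NCI-N87. Of 30 tested genes of this segment, 23 were higher in NCI-N87, 2 in MKN1 and 5 were not called, with a median log2FC of -1.70 against 0.03 over all genes tested. GRB7, an adaptor that binds ERBB2, ranged from 1.68 to 12.6 CPM (median 10.2) in MKN1 and from 790 to 1785 CPM (median 1286) in NCI-N87 (log2FC -7.30 ± 0.44). PPP1R1B, a phosphatase inhibitor, had a log2FC of -7.58 and STARD3, a cholesterol transporter of late endosomes, one of -4.25. All libraries of the lines were apart for these genes. Towards the centromere the kinase CDK12 ranged from 128 to 202 CPM in MKN1 and from 1614 to 1929 CPM in NCI-N87 (log2FC -3.42), and MED1 of the Mediator complex was lower by a log2FC of -3.40. Both ribosomal protein genes of the segment followed, RPL23 at -2.53 and RPL19 at -2.48. Per length, RPL19 was the highest protein-coding gene of NCI-N87, at 3191 RPKM against 571 RPKM in MKN1. TOP2A, the topoisomerase gene often considered with ERBB2, was not called (log2FC 0.26) and its libraries overlapped. PNMT, the adrenaline-forming methyltransferase gene of the same segment, went the other way, from 9.65 to 18.1 CPM in MKN1 and from 0.781 to 1.57 CPM in NCI-N87. IGFBP4, an IGF-binding protein, also did, with a median of 1578 CPM in MKN1 and 82.9 CPM in NCI-N87 (log2FC 4.10). Its log2FC was 4.83 in the 4 h libraries alone and 3.40 in the 24 h libraries alone.

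Among 29 other receptor tyrosine kinases tested, 11 were higher in MKN1 and 10 in NCI-N87. FGFR1 ranged from 55.4 to 97.9 CPM (median 73) in MKN1 and from 0.258 to 1.46 CPM (median 0.581) in NCI-N87 (log2FC 6.69 ± 0.27). AXL, the receptor of GAS6, had medians of 448 and 5.04 CPM (log2FC 6.54), and RET had a log2FC of 6.59 at a median of only 3.47 CPM in MKN1. EPHA1, NTRK2 and MST1R, the receptors of ephrins, BDNF and MSP, were higher in NCI-N87, with log2FC of -5.96, -5.04 and -4.55. MET, the receptor of HGF, ranged from 69.4 to 187 CPM in MKN1 and from 268 to 351 CPM in NCI-N87 (log2FC -1.38 ± 0.17). Its log2FC was -0.82 in the 4 h libraries alone and -1.92 in the 24 h libraries alone. Over all genes tested, 25.5% were higher in MKN1, 20.9% in NCI-N87 and 53.6% were not called. Of 24 feedback and target genes of MAPK signalling tested, 6 were higher in MKN1, 3 in NCI-N87 and 15 were not called. Their median was 0.45, and the share higher in MKN1 was near that of all genes. DUSP4, an ERK phosphatase, led those higher in MKN1 with a log2FC of 2.06. LIF and MYC led those higher in NCI-N87.

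Genes of epithelial adhesion and splicing were lower in MKN1 as a group: 29 of 33 tested were higher in NCI-N87, 1 was higher in MKN1 and 3 were not called, with a median log2FC of -2.64. CDH1, which encodes E-cadherin, ranged from 1.01 to 3.07 CPM (median 2.21) in MKN1 and from 201 to 346 CPM (median 258) in NCI-N87 (log2FC -7.03 ± 0.24, edgeR adjusted p = 2.5e-12). GRHL2, a transcription factor of epithelial junction genes, ranged from 0.175 to 0.893 CPM in MKN1 and had a lowest value of 140.8 CPM and a median of 145.6 CPM in NCI-N87 (log2FC -8.38 ± 0.21). Both genes passed the limits that chose the genes for the trace shares, so those shares cannot tell what their low MKN1 values stand for. RAB25, a Rab GTPase of epithelial recycling, had a log2FC of -8.17, and the splicing factor ESRP1 one of -7.38. EPCAM was lower in MKN1 but remained measurable, at 17.2 to 27.8 CPM against 460 to 553 CPM. JUP, the junction protein plakoglobin, likewise had a median of 187 CPM in MKN1 and 1969 CPM in NCI-N87. CLDN1 was the exception, at 16.9 to 49.3 CPM (median 29.3) in MKN1 and 0.318 to 0.85 CPM (median 0.645) in NCI-N87 (log2FC 5.53 ± 0.25). DSP, which encodes desmoplakin, had medians of 320 and 313 CPM and was not called.

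The keratins of simple epithelia were high in both lines and were not called. KRT8 ranged from 9955 to 13203 CPM in MKN1 and from 9461 to 11328 CPM in NCI-N87 (log2FC 0.15 ± 0.08), and KRT18, its partner, had a log2FC of 0.07 ± 0.11. KRT19 and KRT7 had log2FC of -0.11 ± 0.08 and 0.19 ± 0.09. All 4 tested members of this list overlapped between the lines, and KRT8 and KRT19 were among the 10 highest protein-coding genes per length in both. Claudins were divided, with 4 of 13 tested higher in MKN1 and 5 in NCI-N87, and CLDN4 ranged from 5.14 to 14.2 CPM in MKN1 and from 541 to 676 CPM in NCI-N87. Of 20 integrin subunits tested, 6 were higher in MKN1 and 6 in NCI-N87, led by ITGA9 at 5.79, with 62.8% of its exonic bases within another gene, and ITGB7 at -4.97, with 42.1%.

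The E-box letters CAGGTG or CACCTG, which ZEB and SNAIL repressors can bind, were looked for on both strands in the 250 bases before the start of each gene in RefSeq (GRCh38.p14), where 11134 of 14413 tested protein-coding genes had an entry. They occurred in 16.5% of all these windows, in 16.8% of those of genes higher in MKN1 and in 20.9% of those of genes higher in NCI-N87. Of 18 epithelial genes with an entry, 6 held them. RAB25 and CRB3, a polarity gene, are shown because they had the largest differences of these 6 (log2FC of -8.17 and -6.45), and the letters stand in capitals. DSP and MYO5B held the letters without being called (0.12 and -0.11), whereas EHF and CLDN4 were called higher in NCI-N87 without them (-6.65 and -6.04). The RAB25 window lies at chr1:156060910-156061159, plus strand, with 1 match that starts 41 bases before the gene. The CRB3 window lies at chr19:6464021-6464270, plus strand, with 5 matches, and begins inside CRB3 as GENCODE 29 places it (start 6463777). A match is a description of the letters only.
RAB25: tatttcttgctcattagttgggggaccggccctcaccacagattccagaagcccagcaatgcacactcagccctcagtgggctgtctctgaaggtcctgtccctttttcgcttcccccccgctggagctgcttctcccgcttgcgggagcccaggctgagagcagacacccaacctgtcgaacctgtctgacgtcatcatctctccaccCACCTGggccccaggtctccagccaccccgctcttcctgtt
CRB3: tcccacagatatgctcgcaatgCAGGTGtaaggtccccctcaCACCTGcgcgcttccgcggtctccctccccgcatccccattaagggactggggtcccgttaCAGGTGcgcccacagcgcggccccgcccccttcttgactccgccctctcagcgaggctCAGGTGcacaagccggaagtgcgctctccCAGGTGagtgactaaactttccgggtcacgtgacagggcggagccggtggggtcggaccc

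Mesenchymal genes were mostly higher in MKN1: 21 of 31 tested were called higher there, 2 in NCI-N87 and 8 were not called, with a median log2FC of 3.25. VIM, which encodes vimentin, ranged from 296 to 696 CPM (median 415) in MKN1 and from 2.57 to 11.6 CPM (median 3.55) in NCI-N87 (log2FC 6.24 ± 0.43), with 41.5% of its exonic bases within another gene. SPARC, a matrix protein, ranged from 1045 to 1286 CPM in MKN1 and from 0.849 to 10 CPM in NCI-N87 (log2FC 8.31 ± 0.63). LOXL2, a collagen cross-linking enzyme, had a log2FC of 7.35. ZEB1, a repressor of E-cadherin, differed less, from 29.6 to 45.5 CPM in MKN1 and from 8.27 to 11.5 CPM in NCI-N87 (log2FC 1.96 ± 0.11). FN1, which encodes fibronectin, was present in both lines, at medians of 639 and 243 CPM. TWIST1 and TAGLN were the members higher in NCI-N87, at log2FC of -4.59 and -1.51, TWIST1 at a median of only 2.39 CPM there.

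**Figure D2:**
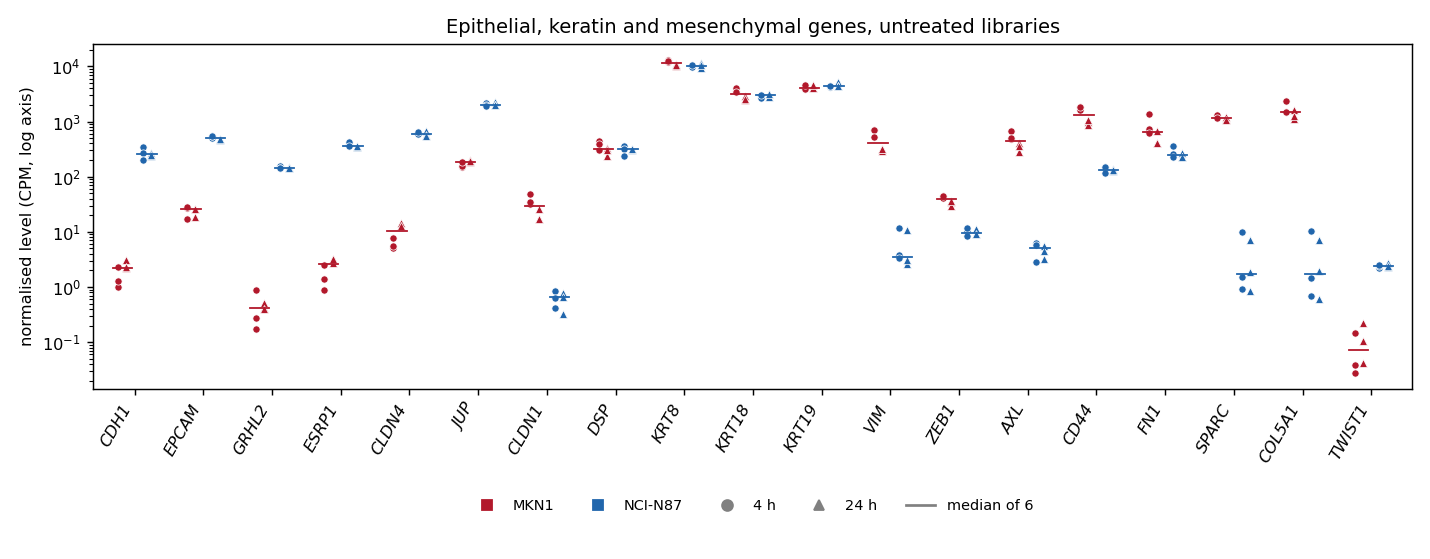
Normalised level (CPM, log axis) of epithelial, keratin and mesenchymal genes in each of the 12 untreated libraries, with circles for 4 h, triangles for 24 h and a bar at the median of the 6 libraries of a line. Values below 0.01 CPM would be drawn at 0.01. CDH1 has a median of 2.21 CPM in MKN1 and 258 CPM in NCI-N87, SPARC one of 1173 and 1.72 CPM, and KRT8, KRT18 and KRT19 overlap.

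Collagens were higher in MKN1 at 20 of 27 genes tested, with 1 higher in NCI-N87 and a median log2FC of 2.80. COL5A1 ranged from 1119 to 2353 CPM (median 1507) in MKN1 and from 0.594 to 10.3 CPM (median 1.7) in NCI-N87 (log2FC 8.72 ± 0.70). COL6A1 and COL6A2, chains of the same microfibrillar collagen, had log2FC of 8.26 and 8.31. COL1A1, the main chain of fibrillar collagen I, had a median of 14.4 CPM in both lines and was not called. Of 13 matrix proteases, plasminogen activators and inhibitors tested, 9 were higher in MKN1, led by MMP16 at 7.46, and MMP7 was higher in NCI-N87 (log2FC -1.81).

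Of 16 endothelial and fibroblast markers and 15 leukocyte markers listed, 10 and 6 could be tested, and 1 and 5 of the others were listed at 0 counts. Of the 10 endothelial and fibroblast markers tested, 5 were higher in MKN1 with 0 in NCI-N87, among them LUM at a median of 85 CPM and PECAM1 at 6.2 to 25.7 CPM in MKN1. The fibroblast genes COL1A2 and PDGFRB had medians of only 0.275 and 1.47 CPM there, and VWF had one of 1.4 CPM. Of the 6 leukocyte markers tested, 2 were higher in MKN1, CD14 at a log2FC of 2.83 and CSF1R at 2.05, and 3 in NCI-N87, PTPRC at -2.18, CD79A at -4.10 and LYZ at -5.69, the last with 41.5% of its exonic bases within another gene. ITGAM was not called (log2FC 0.50), and PTPRC, the pan-leukocyte gene CD45, had medians of 0.0883 and 0.414 CPM.

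Lineage genes of the stomach, intestine and squamous epithelium were found in different sets in both lines. Of 22 gastric mucosa genes tested, 10 were higher in NCI-N87 and 5 in MKN1. MUC5AC, the mucin of surface cells, ranged from 1.64 to 7.72 CPM in MKN1 and from 86.9 to 171 CPM in NCI-N87 (log2FC -4.87). CAPN8, a gastric calpain, had a log2FC of -8.40, whereas the transcription factor BARX1 was higher in MKN1 (2.57). Of 26 intestinal genes tested, 12 were higher in NCI-N87 and 7 in MKN1. AGR2, a disulfide isomerase of mucus cells, ranged from 0 to 0.317 CPM in MKN1 and from 53.4 to 78.8 CPM in NCI-N87 (log2FC -8.65 ± 0.29). KRT20 and the nuclear receptor HNF4A followed at -8.47 and -6.01. The peptidases ANPEP and DPP4 were higher in MKN1 (6.99 and 6.18).

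Squamous and basal genes were higher in NCI-N87 at 21 of 32 tested and higher in MKN1 at 5, with a median of -1.72. Involucrin, encoded by IVL, ranged from 0.0175 to 0.273 CPM in MKN1 and from 17.8 to 69.1 CPM in NCI-N87 (log2FC -8.25). KRT17 ranged from 203 to 664 CPM and from 2578 to 5239 CPM (log2FC -3.33), and it was among the 10 highest genes per length in NCI-N87. Some genes of basal cells went the other way. KRT5 ranged from 34.2 to 136 CPM in MKN1 and from 0.258 to 1.21 CPM in NCI-N87 (log2FC 6.97 ± 0.38), and TP63, the transcription factor of basal cells, had a log2FC of 4.88. KRT14 and DSC3 had log2FC of 3.74 and 5.40.

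Genes of the NRF2 response and xenobiotic metabolism were higher in NCI-N87 at 19 of 28 tested and in MKN1 at 4, with a median of -1.51. ALDH3A1, an aldehyde dehydrogenase, ranged from 0.896 to 5.11 CPM in MKN1 and from 1024 to 1434 CPM in NCI-N87 (log2FC -9.00 ± 0.41). ALDH1A1 had a log2FC of -8.17, and SLC7A11, the cystine transporter, one of -5.57 with 82.1% of its exonic bases within another gene. That of SLC7A11 was -6.54 in the 4 h libraries alone and -4.70 in the 24 h libraries alone. NQO1, a quinone reductase, ranged from 157 to 213 CPM and from 1241 to 1585 CPM (log2FC -2.95 ± 0.09). ABCG2, a drug efflux pump, was higher in MKN1 (4.33), as was CYP2S1 (3.37). Of 26 genes of cholesterol and fatty acid synthesis tested, 10 were higher in NCI-N87 and 1 in MKN1. SQLE and the regulator SREBF2 had log2FC of -2.73 and -2.54, and the desaturase FADS2 one of 2.24. Of 24 glycolysis and hypoxia genes tested, 17 were not called, against 53.6% of all genes tested. The glucose transporter SLC2A1 was higher in NCI-N87 (log2FC -2.83), and LDHA and ENO1 were higher in MKN1 (1.51 and 1.27).

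Of 23 Wnt targets and LGR receptors tested, 12 were higher in NCI-N87 and 7 in MKN1. AXIN2, a feedback target, ranged from 6.16 to 9.37 CPM in MKN1 and from 169 to 280 CPM in NCI-N87 (log2FC -4.82 ± 0.09), with 45% of its exonic bases within another gene. RNF43, which removes Wnt receptors, had a log2FC of -7.51 at an overlap of 75.6%. WNT5A, a noncanonical ligand, ranged from 30.9 to 54.5 CPM in MKN1 and from 0 to 0.191 CPM in NCI-N87 (log2FC 8.92), and DKK3 had a log2FC of 8.32. Of 17 Notch genes tested, 7 were higher in NCI-N87 and 2 in MKN1. The receptor NOTCH3 had a log2FC of -4.78, and the ligands DLL1 and DLL3 had log2FC of 6.94 and 6.50.

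TGF-beta and BMP genes were higher in MKN1 at 14 of 25 tested and in NCI-N87 at 2, with a median of 1.29. SMAD4, the shared mediator of both branches (chromosome 18, 51028394 to 51085045, plus strand), ranged from 37.3 to 48.8 CPM (median 43.7) in MKN1 and from 0.966 to 1.99 CPM (median 1.69) in NCI-N87 (log2FC 4.76 ± 0.13). Its libraries were far apart, and MKN7 and Hs746T had means of 50.6 and 55.3 CPM on library totals. Of its exonic bases, 37% lie within another gene. TGFBR2 ranged from 281 to 365 CPM and from 68.2 to 89.7 CPM (log2FC 2.07), and ID3, a BMP target, had a log2FC of 4.48. That of ID3 was 3.31 in the 4 h libraries alone and 5.65 in the 24 h libraries alone (line by time interaction 2.35). BMP4 was higher in NCI-N87, at 742 to 929 CPM against 93.2 to 133.3 CPM. Of 24 YAP and TEAD targets tested, 9 were higher in MKN1 and 2 in NCI-N87, with CYR61 at 2.48.

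Interferon-stimulated genes were higher in NCI-N87 at 13 of 24 tested and in MKN1 at 3, with a median of -1.08. IFI27 ranged from 1.54 to 3.19 CPM in MKN1 and from 97.8 to 182 CPM in NCI-N87 (log2FC -5.90 ± 0.20). MX2, an antiviral GTPase, was higher in MKN1, at 97.1 to 114.7 CPM against 6.6 to 11.2 CPM. Of 18 genes of antigen presentation tested, 8 were higher in MKN1 and 3 in NCI-N87. B2M and CD274, which encodes PD-L1, were higher in NCI-N87 (-1.51 and -3.53), and the class II regulator CIITA and HLA-DRA were higher in MKN1 (4.25 and 4.68), CIITA with 46.7% of its exonic bases within another gene. HLA genes share reads with near-identical copies, so their values are uncertain.

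Of 12 chemokines tested, 6 were higher in MKN1 and 4 in NCI-N87. CXCL5, a neutrophil attractant, ranged from 0.21 to 1.07 CPM in MKN1 and from 106.2 to 189.8 CPM in NCI-N87 (log2FC -8.25), and CCL28 had a log2FC of 6.64. Of 15 interleukins and related factors tested, 7 were higher in MKN1 and 4 in NCI-N87. CSF1, the macrophage growth factor, ranged from 97.9 to 240 CPM in MKN1 and from 0.338 to 1.72 CPM in NCI-N87 (log2FC 7.36). LIF ranged from 5.52 to 20.8 CPM and from 107.6 to 205.4 CPM (log2FC -3.58).

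Germline antigens were higher in MKN1 at 11 of 13 tested, with a median of 7.12, and TDRD1 was higher in NCI-N87. MAGEA4 ranged from 30 to 37.9 CPM in MKN1 and from 0 to 0.0766 CPM in NCI-N87 (log2FC 9.60 ± 0.20). It had only 12 counts over all NCI-N87 libraries, so its fold is less certain than this SE. PRAME and MAGEA11 had log2FC of 8.95 and 8.49. MAGE genes are near copies of each other, so single members are uncertain. Of 12 neural and neuroendocrine genes tested, 7 were higher in MKN1, among them NEFL at 8.48 and UCHL1 at 8.31, and GAST was higher in NCI-N87 (-4.85). Of 39 HOX genes, 19 were tested, 12 higher in MKN1 and 5 in NCI-N87, led by HOXD10 at 8.56 and HOXD3 at -3.90, the latter with 81.2% of its exonic bases within another gene.

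Of all genes tested, 10246 (53.6%) were not called, and the shares of the following lists are read against that. Of 40 DNA replication genes tested, 35 were not called, and PCNA had medians of 216 and 194 CPM. RPA2, a single-strand binding subunit, was higher in MKN1 (1.98) and CDC6, a licensing factor, in NCI-N87 (-1.65). Of 23 cell cycle regulators tested, 14 were not called, a share near that of all genes. MYC ranged from 18.1 to 55.8 CPM in MKN1 and from 318 to 415 CPM in NCI-N87 (log2FC -3.48 ± 0.19). Its log2FC was -2.92 in the 4 h libraries alone and -4.03 in the 24 h libraries alone. CCNE1, which encodes cyclin E1, had medians of 111.7 and 22.2 CPM (2.34 ± 0.10). Of 14 BCL2 family genes tested 12 were not called, of 23 p53 targets 18, of 22 genes of DNA methylation, polycomb and mismatch repair 15, and of 67 ribosomal protein genes 56. Among the p53 targets GDF15, a stress cytokine, ranged from 0.818 to 3.98 CPM in MKN1 and from 253 to 449 CPM in NCI-N87 (log2FC -7.30 ± 0.33). The ribosomal protein genes had a median of 0.09, and RPL23 and RPL19 on 17q led those higher in NCI-N87.

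**Figure D3:**
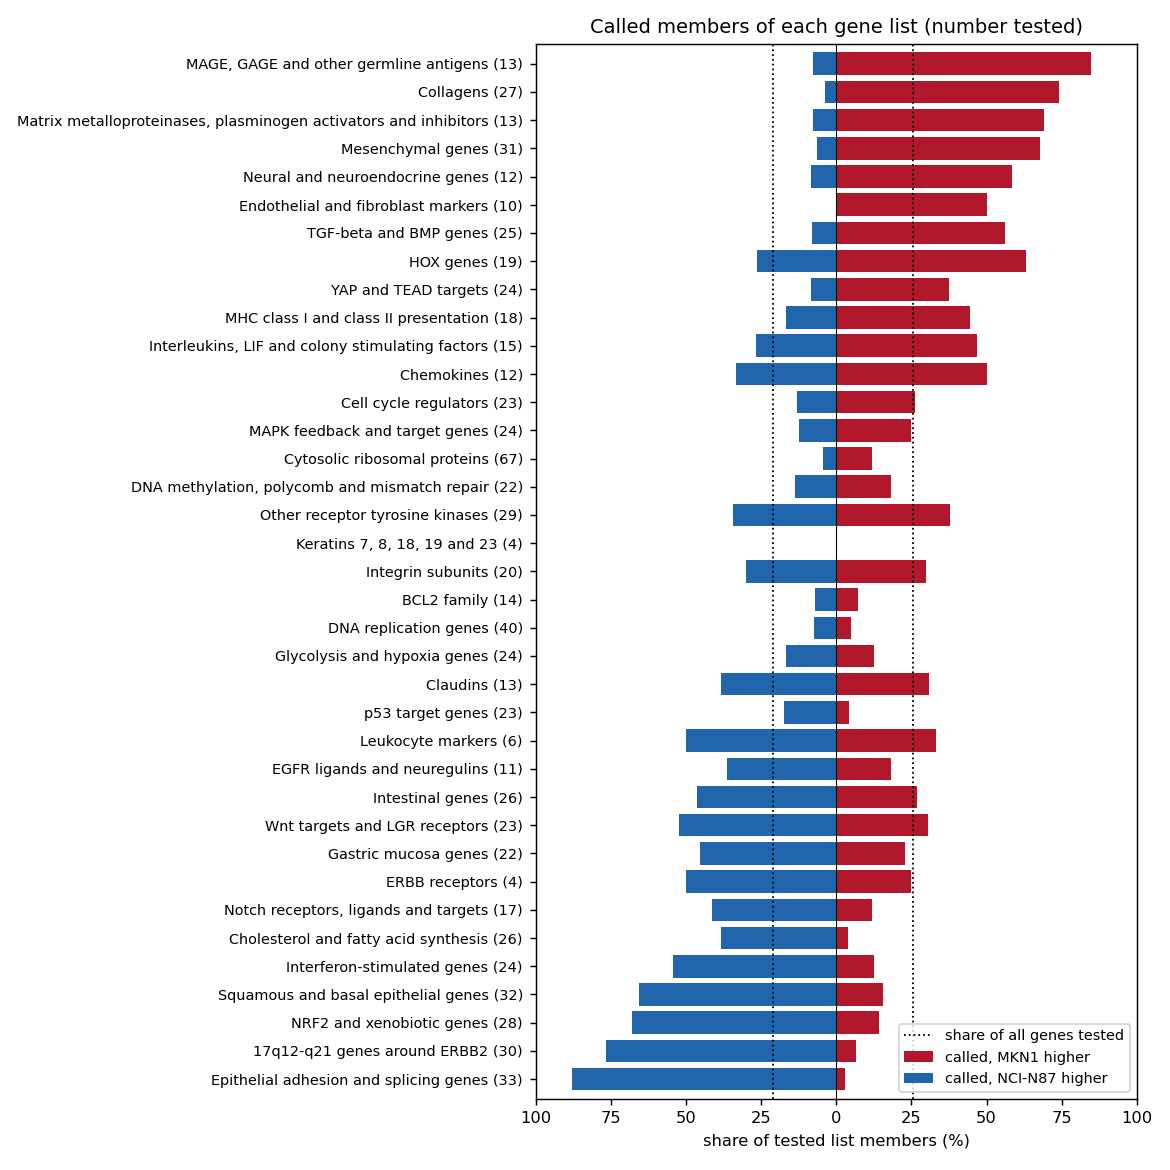
Share of the tested members of each list (%, horizontal axis, list sizes in parentheses) called higher in MKN1, drawn to the right, or in NCI-N87, drawn to the left, with dotted lines at the shares of all genes tested. The shares of the epithelial genes (29 of 33) and the germline antigens (11 of 13) reach far beyond the dotted lines at 20.9% and 25.5%, and the keratins have 0 calls. The lists were chosen with earlier results of these data known.

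Among well expressed protein-coding genes, the 15 with the largest difference towards MKN1 ran from a log2FC of 9.60 for MAGEA4 to 8.57 for FBLN2. They included the actin-binding protein gene LSP1 at 9.06, the homeobox gene NKX6-3 at 8.93, FOXL2 at 8.69 and the chemokine receptor ACKR3 at 8.58. PNMA5 ranged from 822 to 1221 CPM in MKN1 and from 0.378 to 6.78 CPM in NCI-N87. IGF2, a growth factor, had a median of 2085 CPM in MKN1 and 3.09 CPM in NCI-N87, with 63% of its exonic bases within another gene. Towards NCI-N87 the 15 ran from -9.51 for TMPRSS4, a membrane serine protease at 230 to 364 CPM in NCI-N87, to -8.63 for S100A14. They included A2ML1, SCEL and SULT2B1, known from stratified epithelium, each at -9.09, and FOXJ1, a factor of ciliated cells, at -8.82.

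Of genes with 3 or fewer counts in every NCI-N87 library, the highest in MKN1 were CBLN1 at 11.8 to 16.1 CPM, TUBA3C at 6.77 to 10.2 CPM and NRN1 at 4.91 to 12.5 CPM. SOX11 had 2201 counts over the MKN1 libraries and 3 over those of NCI-N87, a ratio of levels of 789 (95% interval 270 to 3825, counting error only), with 59.2% of its exonic bases within another gene. Of genes with 3 or fewer counts in every MKN1 library, the highest in NCI-N87 were DUOXA1, a maturation factor of dual oxidases, at 8.32 to 11.6 CPM, and C1orf210 at 6.8 to 12.2 CPM. ELF5, an epithelial ETS factor, reached 2.8 to 6.49 CPM there.

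Along the chromosomes, the runs of neighbouring genes with the highest and the lowest median log2FC were picked out. Over runs of 25 neighbouring tested genes, the highest median was on chromosome 19, 19710471 to 23250390 (ZNF14 to ZNF724), at a log2FC of 6.43, with 20 genes higher in MKN1 and 0 in NCI-N87. Of the 25 genes, 24 carry ZNF or ZFP symbols of the zinc finger repressor family, and 17 had a mean below 0.1 CPM in NCI-N87. The second run, chromosome 19 from 36139575 to 37692337 (CAPNS1 to ZFP30), had a median of 4.50 with 23 genes higher in MKN1. ZNF43 ranged from 9.84 to 14.7 CPM in MKN1 and from 0 to 0.142 CPM in NCI-N87 (log2FC 8.12 ± 0.33, with 12 counts over all NCI-N87 libraries). ZNF85 ranged from 11.9 to 15.3 CPM and from 0 to 0.172 CPM. Within the same run ZNF430 and ZNF431 were not called, at log2FC of -0.65 and -0.26. Zinc finger genes are near copies, so their counts are uncertain. Grouped after the values were seen, 40 of 46 such symbols in both runs were higher in MKN1, and 0 in NCI-N87. Elsewhere on chromosome 19, 43 were higher in MKN1, 21 in NCI-N87 and 78 were not called, and on other chromosomes 47, 31 and 150. These runs and all others named below were chosen by these same fold changes, so their medians and counts follow in part from the choice. In the first run 6 genes had a mean below 0.1 CPM in untreated MKN7 and 4 in Hs746T.

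**Figure D4:**
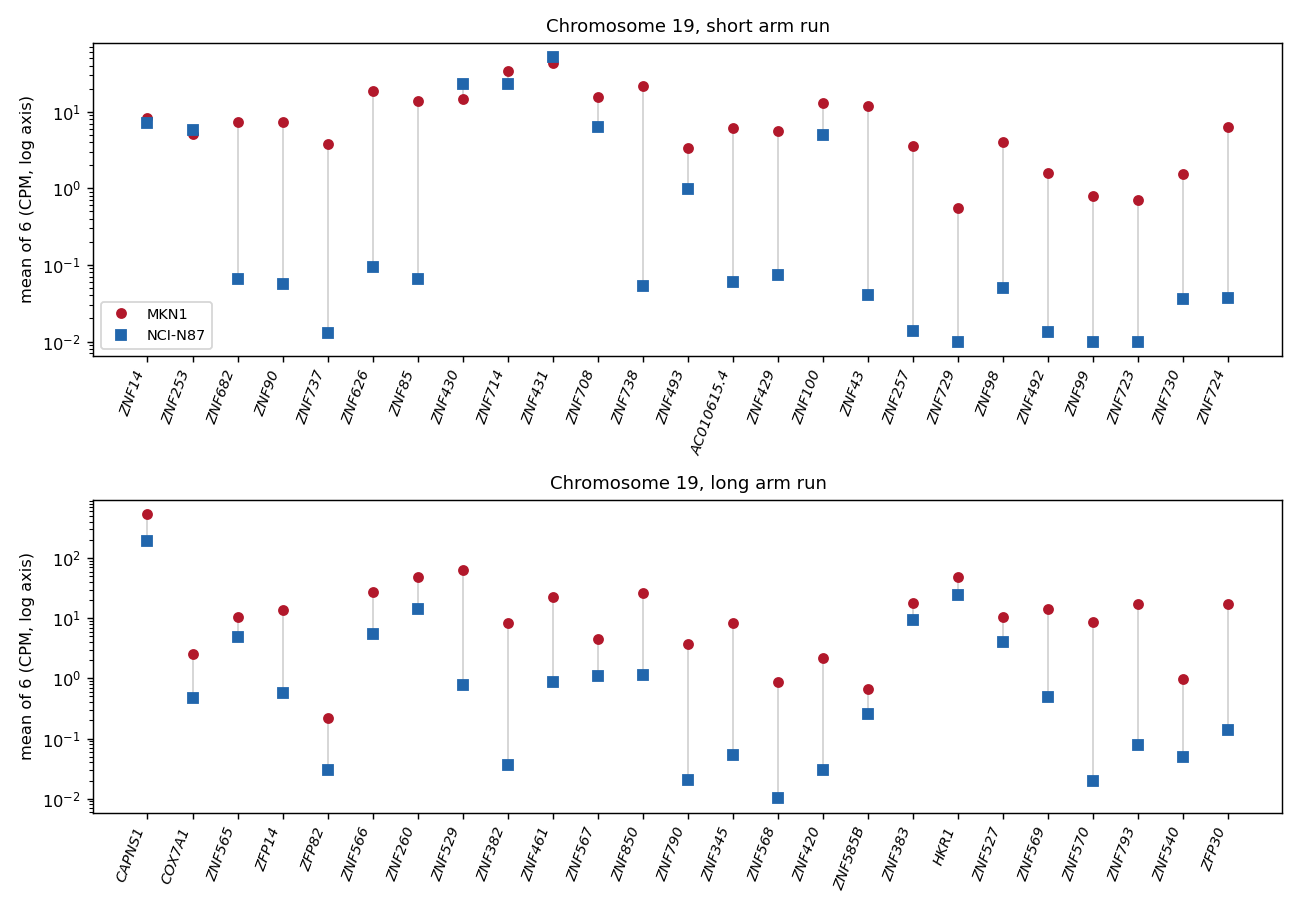
Mean level of the 6 libraries of each line (CPM, log axis) for the 25 genes of each chromosome 19 run, in their order along the chromosome, with circles for MKN1 and squares for NCI-N87. Means below 0.01 CPM are drawn at 0.01. In NCI-N87, 17 genes of the upper run and 9 of the lower lie below 0.1 CPM, and 0 genes of MKN1 do.

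The 250 bases before the RefSeq start of 4 genes of the first run are shown because ZNF43 and ZNF85 were near 0 in NCI-N87 and ZNF430 and ZNF431 were measured in both lines. CG pairs, the sites of DNA methylation, stand in capitals, and methylation was not measured. The windows (RefSeq, GRCh38.p14) lie at chr19:21836183-21836432, minus strand, for ZNF43, and on the plus strand at chr19:20923001-20923250 for ZNF85, chr19:21020407-21020656 for ZNF430 and chr19:21141790-21142039 for ZNF431. RefSeq and GENCODE 29 place the start of ZNF43 differently: the gene as tabulated here runs from 21804949 to 21852125, so that its window lies inside it. The windows held 9, 8, 10 and 11 CG pairs, against a median of 20 over all 11134 windows. In both runs together, 21 genes under 0.1 CPM in NCI-N87 had a median of 10 CG pairs and the other 20 one of 13.5.
ZNF43: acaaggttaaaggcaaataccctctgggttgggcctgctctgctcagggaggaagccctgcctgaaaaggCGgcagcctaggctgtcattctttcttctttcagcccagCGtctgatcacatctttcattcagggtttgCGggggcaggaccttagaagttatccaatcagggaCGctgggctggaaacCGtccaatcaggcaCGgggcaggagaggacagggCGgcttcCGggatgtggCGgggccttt
ZNF85: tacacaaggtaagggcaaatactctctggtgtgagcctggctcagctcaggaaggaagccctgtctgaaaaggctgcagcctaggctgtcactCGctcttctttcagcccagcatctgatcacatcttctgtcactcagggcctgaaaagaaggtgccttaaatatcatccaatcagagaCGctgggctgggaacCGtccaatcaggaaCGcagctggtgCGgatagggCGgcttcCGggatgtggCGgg
ZNF430: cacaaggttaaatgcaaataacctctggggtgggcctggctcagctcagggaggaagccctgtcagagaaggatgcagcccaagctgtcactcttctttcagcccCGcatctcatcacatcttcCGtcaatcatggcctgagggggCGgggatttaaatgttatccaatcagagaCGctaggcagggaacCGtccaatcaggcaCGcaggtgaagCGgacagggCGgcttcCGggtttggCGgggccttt
ZNF431: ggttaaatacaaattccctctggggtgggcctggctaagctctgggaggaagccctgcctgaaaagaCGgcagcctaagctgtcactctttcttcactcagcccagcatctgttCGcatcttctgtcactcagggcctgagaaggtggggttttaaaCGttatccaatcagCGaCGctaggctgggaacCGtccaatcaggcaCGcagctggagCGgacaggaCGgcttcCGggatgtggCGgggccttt

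The next runs towards MKN1 were 2 on chromosome X, with medians of 2.77 and 2.72, and 1 on chromosome 17 from 7921859 to 10373130 with a median of 2.47. The first of these X runs holds BEX2 (28.2 to 50 CPM in MKN1 and 0 to 0.202 CPM in NCI-N87) and ARMCX3 (log2FC 7.43), and the second XAGE2 (8.38). Towards NCI-N87 the lowest run was that around ERBB2, chromosome 17 from 38835088 to 39977766, with a median of -2.53 and 21 genes higher in NCI-N87. A run on chromosome 12, 14767999 to 21419594, followed at -2.28, with PIK3C2G, a class II PI3-kinase, at -7.92 and MGST1 at -2.28. Runs on chromosomes 6, 15 and 3 had medians of -1.63, -1.51 and -1.40. The chromosome 15 run holds the dual oxidase genes DUOX1 and DUOX2, at -4.66 and -5.84, and the chromosome 3 run holds MECOM at -5.78.

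The difference between the lines depended on harvest time at 1642 of 19098 genes (8.60%; edgeR interaction, adjusted p below 0.05), 755 with a positive and 887 with a negative interaction (46% positive). This split rested on the scaling: by library size alone it was 1309 positive and 381 negative (77.5%), with a median interaction over all genes of 0.16 in place of 0.01, and without a filter on low counts it was 936 and 722 (56.5%). With a block for the replicate number within each line, added after the data were seen, the count was 3389, and without MKN1 replicate 1 it was 243. The leading interactions are given for genes with a mean of at least 3 on the log2 CPM scale. HMGA2, a chromatin architectural factor, ranged in MKN1 from 59.9 to 65.1 CPM at 4 h and from 11.3 to 16.4 CPM at 24 h. In NCI-N87 it ranged from 54.5 to 64 CPM and from 48 to 62.5 CPM (interaction log2 -2.09). TNFSF10, the death ligand TRAIL, ranged in MKN1 from 1.3 to 2.33 CPM at 4 h and from 10.4 to 31.3 CPM at 24 h. In NCI-N87 it ranged from 5.9 to 7.67 CPM and from 6.54 to 12.6 CPM, so that the libraries were apart at 4 h and overlapped at 24 h (interaction 3.11). HMOX1, a heme-degrading NRF2 target, moved in the other line, from 326 to 775 CPM at 4 h and from 113.7 to 154.4 CPM at 24 h in NCI-N87 (interaction 2.38). In MKN1 it ranged from 13.7 to 23.7 CPM.

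AKAP12, MLPH, PMEPA1 and CEMIP had the other leading negative interactions, at -2.60, -2.43, -2.06 and -1.96, CEMIP with 75.6% of its exonic bases within another gene. AKAP12, a scaffold of protein kinase A, ranged in MKN1 from 182 to 275 CPM at 4 h and from 43.4 to 52 CPM at 24 h, and in NCI-N87 from 329 to 497 CPM and from 451 to 562 CPM. PMEPA1, a TGF-beta target, had means of 203 and 52.9 CPM in MKN1 and 1113 and 1207 CPM in NCI-N87. TRMT9B, GSPT2 and ACKR3 had interactions of 3.84, 2.51 and 2.50, and their NCI-N87 values were traces of at most 0.607 CPM. TRMT9B also rose in MKN1, from 17.8 to 30.5 CPM at 4 h to 79.5 to 131.9 CPM at 24 h. ACKR3 likewise ranged in MKN1 from 44.5 to 57.6 CPM at 4 h and from 96.2 to 104.6 CPM at 24 h. GSPT2 ranged in MKN1 from 36.6 to 40.4 CPM at 4 h and from 34.3 to 39.6 CPM at 24 h, and in NCI-N87 from 0.0931 to 0.344 CPM and from 0.0191 to 0.0411 CPM.

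**Figure D5:**
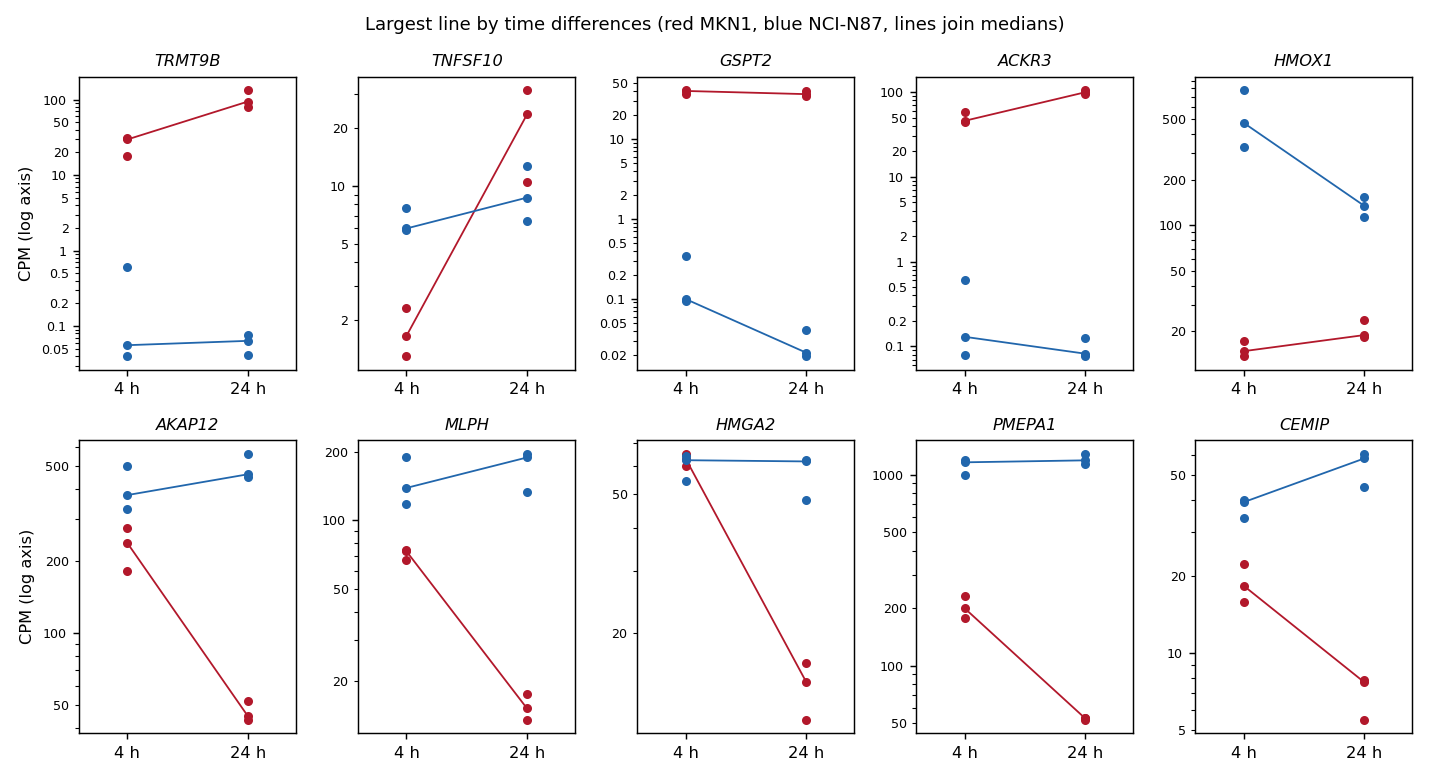
Normalised level (CPM, log axis, 1 scale a panel) at 4 h and 24 h of the genes with the 5 largest line by time interactions in each direction, among those with a mean of at least 3 on the log2 CPM scale, with 1 point a library, red for MKN1, blue for NCI-N87 and lines between medians. HMGA2 lies at 59.9 to 65.1 CPM at 4 h and at 11.3 to 16.4 CPM at 24 h in MKN1, and the blue points of TRMT9B, GSPT2 and ACKR3 all lie below 1 CPM.

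The 12 trastuzumab-treated libraries of both lines, which share no library with those above, gave 8894 calls of 19203 genes tested (46.3%). Of the 8852 untreated calls, 8705 were tested there, 8702 had the same sign, and 8244 were called with the same sign, which is 93.1% of the untreated and 92.7% of the treated calls. Under trastuzumab the log2FC of ERBB2 was -6.50, that of CDH1 -6.97, that of AXL 6.23 and that of SMAD4 4.75. These libraries come from the same lines and culture series, so they do not stand for other cells.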

How the data were processed

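RNA of untreated MKN1 and NCI-N87 (6 libraries each) and, for a repeat, of the trastuzumab-treated libraries was compared. The authors deposited raw counts per Ensembl gene. The submitters' processing notes name Trim Galore, STAR and hg38, and the counting program and annotation are not given in the sources used here. Symbols, exon lengths and overlaps came from GENCODE 29. Of 65217 identifiers, 8404 were unmatched (0.0397% of counts). The counts were tested with edgeR 4.0.16 (quasi-likelihood, TMM, filterByExpr), with line and time as terms and Benjamini-Hochberg adjustment. Each SE is the absolute log2FC divided by the square root of the F statistic. It is no separate estimate of the counting error where 1 line had few counts. A gene was called at an adjusted p below 0.05 and an absolute log2FC of at least 1, and an interaction by its adjusted p alone. Genes with few or no listed counts in both lines were not tested, which is no measure of absence. DESeq2 1.42.0 was an alternative. The fit was tested on simulated data. Members and lists were chosen with earlier results of these data known, and groups follow the labels. Any member of the 37 gene lists could be named, with the largest changes first. The other genes named were the 15 largest differences each way with a mean log2 CPM of at least 5, the 10 highest of those with 3 or fewer counts in every library of the other line, the 10 highest per length, the 5 largest interactions each way with a mean of at least 3 on the log2 CPM scale and the genes of the 5 highest and lowest runs of 25 genes. No 2 libraries were identical. Libraries of 1 line with the same number deviated together (correlation 0.22 to 0.79 over 6 pairs), those of different lines did not (mean -0.07). The limits that chose the genes for the trace shares, the promoters printed and the grouping of zinc finger genes were set after the values were seen, as was an alternative without genes of 50% or more exonic overlap. Some genes of the lists are counted but not reported here by name.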

Additional observations from a re-analysis of the deposited data

Results flagged for a closer look

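Of 176 groups of 6 libraries examined for a single distant library (Dixon's gap over range, 95% limit), 8 (4.55%) held one. For independent values of 1 kind chance gives about 1 in 20. Each group mixes 4 h and 24 h libraries, and those of the same replicate number deviate together, so that rate is only a guide. In MKN1 the replicate 2 library at 4 h was highest for RAB25 (0.794 CPM, the others 0.156 to 0.381, gap ratio 0.647). It was lowest for COL1A1 (8.75 CPM, the others 13.8 to 14.7, gap ratio 0.86). The MKN1 replicate 1 library at 4 h was highest for FN1 (1376 CPM, the others 406 to 746, gap ratio 0.65). In NCI-N87 the replicate 1 library at 4 h was highest for ERBB4 (1.01 CPM, the others 0.0398 to 0.391, gap ratio 0.639), FN1 (355 CPM, the others 226 to 263, gap ratio 0.709) and ZNF43 (0.142 CPM, the others 0 to 0.0411, gap ratio 0.71). The NCI-N87 replicate 1 library at 24 h was highest for KRT19 (5139 CPM, the others 4190 to 4469, gap ratio 0.706), and replicate 3 at 24 h for CCND1 (421 CPM, the others 315 to 355, gap ratio 0.629).

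The difference between the lines differed between 4 h and 24 h, by the interaction term, at 1642 genes. The leading interactions (log2) were 3.84 for TRMT9B, 3.11 for TNFSF10, 2.51 for GSPT2, 2.50 for ACKR3, 2.38 for HMOX1, -2.60 for AKAP12, -2.43 for MLPH, -2.09 for HMGA2, -2.06 for PMEPA1 and -1.96 for CEMIP.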

How the results depend on the processing

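The count of genes called between the lines lay between 7308 and 11062 in 20 alternatives and was 8855 with the replicate block. With the 4 h and 24 h counts summed per replicate it was 9332 of 20204 genes tested. With at least 10 counts in every library it was 4755 of 13882 genes tested, and in trastuzumab-treated libraries 4786 of 13959. This filter drops genes with few counts in 1 line, and 60 named calls were left. Leaving out a replicate gave 8931 to 9150 calls, 8985 to 9231 under trastuzumab and 432 to 438 list members. With the replicate block the trastuzumab count was 8905 and the list count 442. The interaction was less stable: 243 to 1339 genes without a replicate (without MKN1 replicate 1 243 and replicate 2 703, without NCI-N87 replicate 1 1023, replicate 2 309 and replicate 3 1086), 2574 with DESeq2, 1761 with the replicate block and 3389 with the block within each line. The highest run had a median of 6.86 with 15 genes (chromosome X, GAGE10 to XAGE1B) and 2.37 with 40 (chromosome 19), and the lowest run -3.64 with 15 (chromosome 12, DERA to SLCO1A2) and -2.22 with 40 (chromosome 17). The cause of these shifts was not tested. Of single genes, ERBB4 lost its call in 9 alternatives (lowest log2FC 0.82), MET, AKAP12 and CEMIP in the 4 h libraries alone (-0.82, -0.77 and -0.97), and EGFR (1.34 and 1.00) and CCND1 (1.57 and 1.00) gained one in the 4 h libraries alone and within series 2. TNFSF10, not called at -0.19, was called at -1.86 in the 4 h and, in the opposite direction, at 1.23 in the 24 h libraries alone, and HMGA2 (-0.97) was called at -2.03 in the 24 h libraries alone and at -1.01 to -1.14 without 1 NCI-N87 replicate. RPS12 was called within series 2 alone (-1.09). No named gene called between the lines changed sign in these alternatives, and 9 of 23 not called did in at least 1, among them KRT18 (-0.20 in the 24 h libraries). Depth limits levels under 3 counts.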

Other observations

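Ribosomal protein genes outside 17q were called in a few cases. RPL9, RPL11 and RPL27A were higher in MKN1, at log2FC of 1.32, 1.20 and 1.17, and RPS2 was higher in NCI-N87 at -1.01. RPL9 ranged from 601 to 936 CPM in MKN1 and from 239 to 361 CPM in NCI-N87. These genes have many processed copies, so their counts are uncertain.

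Per length, the highest protein-coding genes of MKN1 were not called between the lines, among them RPL8 at 1971 RPKM in MKN1 and 1324 RPKM in NCI-N87, ACTB at 1450 and 951 RPKM and FTL at 1001 and 1226 RPKM.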
